A study of Drosophila melanogaster with 12 samples.

Results

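The genes described here are 31 Drosophila genes of synaptic transmission: 17 whose products release, prime, store or retrieve synaptic vesicles or bind RNA in neurons, and 14 whose products make, load, break down or take back transmitters. They were listed by name and function. On the 8-array design 28 of the 31 had a probe set annotated to that gene alone, among 11982 genes with such a probe set, and 22 of these lay above the level filter. For the 4-array design, 24 had one, among 10844 genes, and 21 lay above the filter. Probe sets for Syt1, Syx1A and comt were not analysed here. Each gene is represented by its probe set with the highest mean level.

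The study measured RNA from whole fly heads on 12 Affymetrix arrays. All flies were labelled CLKGR, in which the circadian transcription factor CLOCK is fused to the steroid-binding portion of a glucocorticoid receptor and is switched on by the steroid dexamethasone (DEX). All heads, the vehicle controls included, also received cycloheximide (CHX), an inhibitor of protein synthesis. The groups with a labelled Zeitgeber time (ZT, hours after lights on) were V+CHX at ZT4 (1 array, replicate 2), DEX+CHX at ZT4 (2 arrays), V+CHX at ZT16 (2 arrays) and DEX+CHX at ZT16 (2 arrays). An 8th array on the same design was V+CHX with no labelled time and entered no main test. The 4-array design held 2 V+CHX and 2 DEX+CHX arrays, none with a labelled time. The sources used here do not give the driver of the fusion, the age and sex of the flies or the length of treatment. The labels do not state that replicates are separate sets of flies, so the p-values cover array-to-array spread, part or all of which may be technical.

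Transmitter release follows a common path in all neurons. Vesicle and plasma membrane SNARE proteins zip together, and calcium sensors and clamps time the fusion. Active zone scaffolds hold vesicles at the release site, and dynamin pulls the membrane back. Neurons then differ in the enzyme that makes their transmitter and in the transporter that loads it into vesicles. Acetylcholine is the main fast excitatory transmitter of the fly brain, GABA its main inhibitory one, and photoreceptors release histamine. In bulk RNA from heads, fewer cells of a type and less RNA per cell cannot be told apart.

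Levels are on a log2 scale, and a difference of 1 is a doubling. A level belongs to its own probe set, so levels are compared between arrays and not between genes. The pan-neuronal markers elav and fne, RNA-binding proteins used to mark neurons, were above the filter level of 2.78 on every array, at 5.43 to 5.77 and at 6.20 to 7.24. The transmitter systems differed in whether any of their genes passed that filter. Acetylcholine had 3 of 3 genes above it, dopamine 2 of 2, the enzyme and transporter shared by the monoamines 2 of 2 and serotonin 1 of 1. GABA had 1 of 2, since Gad1 passed and the vesicular GABA transporter VGAT did not. Glutamate (VGlut, the vesicular glutamate transporter), octopamine and tyramine (Tdc2, tyrosine decarboxylase, and Tbh, tyramine beta-hydroxylase) and histamine (Hdc, histidine decarboxylase) had none. The active zone scaffold brp was also below the filter. Being below it is a property of these probe sets on this design: VGAT, VGlut, Tbh, Hdc and brp all passed the filter on the 4-array design, whereas Ace, DAT and SerT did not pass there.

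As a check of the treatment label, the direct CLOCK target tim was higher with DEX on the timed arrays by 3.21 ± 0.40 (log2 change ± SE, adjusted p = 0.304, limma). Its log2 change on the 4-array design was -3.80 ± 0.20 (adjusted p = 0.0246, limma), lower on the arrays labelled DEX, which goes against the label. No comparison was made across the designs other than counts of direction. Among the timed arrays, DEX ZT16 replicate 1 had the largest difference between the 3′ and 5′ actin control probe sets, 1.70 against 0.85 to 1.27 on the others. Its difference for the GAPDH controls, 2.56, lay within the 2.13 to 2.61 of the others. For the eIF-4a controls it was 2.16 against 1.89 to 2.11. V ZT16 replicate 1 had the highest 25th percentile of levels, 2.68 against 2.58 to 2.62, and correlated least well with the rest, with a mean r of 0.945.

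**Figure D1:**
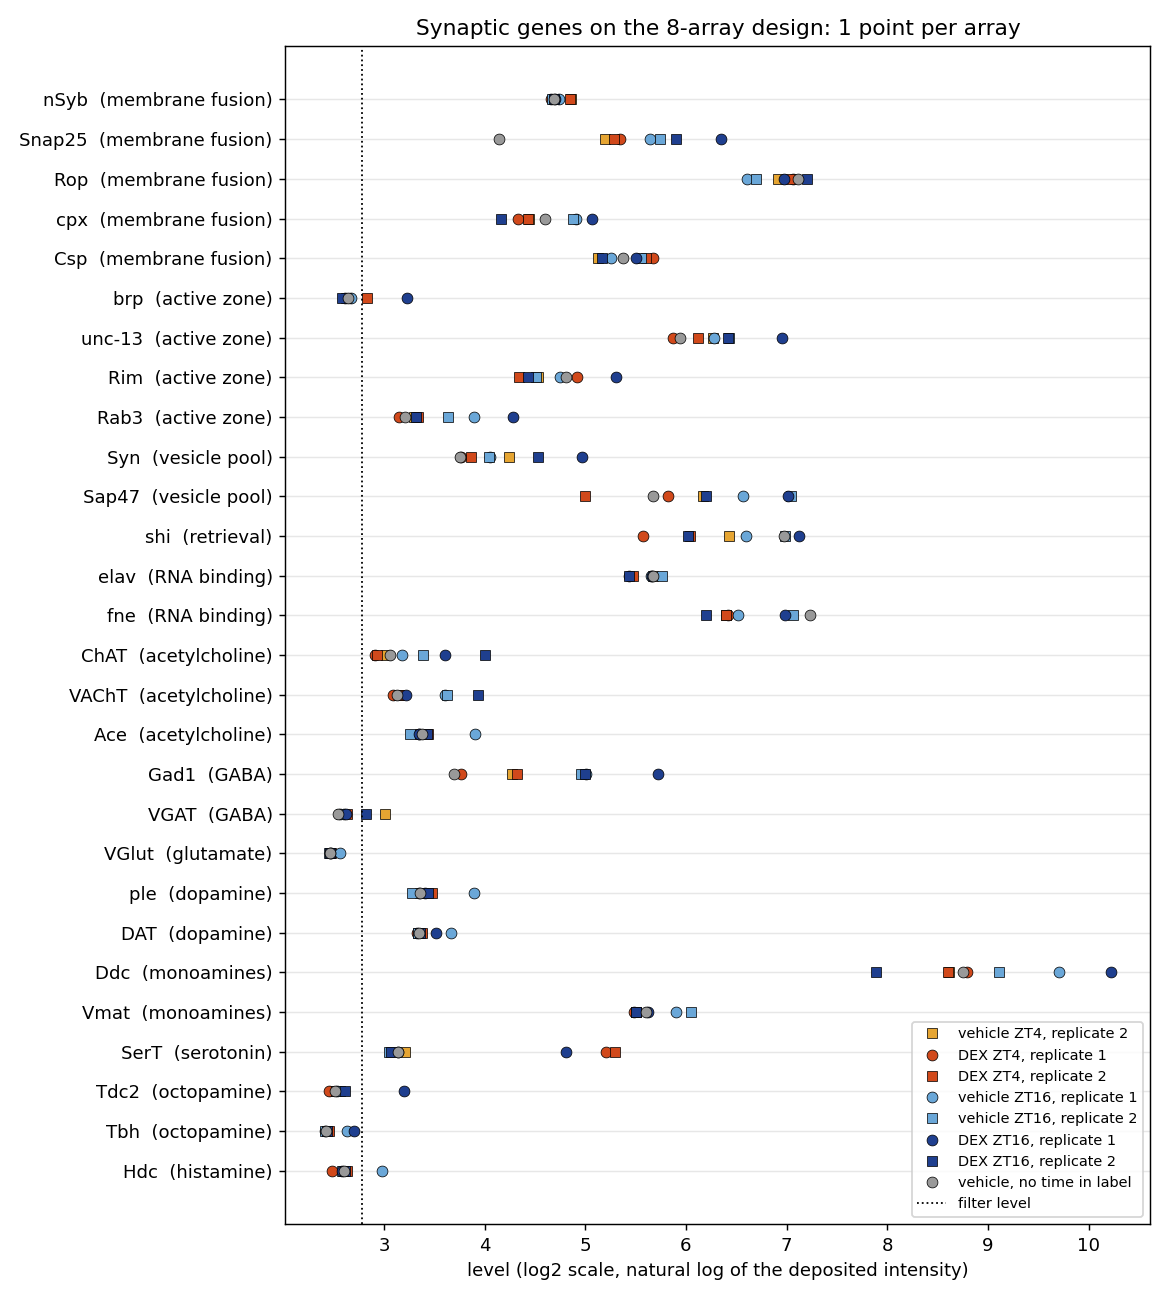
Level of each of the 28 genes with a probe set on the 8-array design, 1 point per array, on a log2 scale (natural log of the deposited intensity). Colour gives treatment and time, circles are replicate 1 and squares replicate 2, and the dotted line is the filter level of 2.78. The dark blue circle, DEX ZT16 replicate 1, is the rightmost timed point for 9 of the 22 genes above the filter.

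The first question was whether the transmission genes differed between day and night. When time and treatment were fitted additively on the 7 timed arrays, 18 of the 22 tested genes had a higher level at ZT16 than at ZT4, where 54.7% of the 11261 probe sets tested did. Their median change was 0.30, against 0.02 over all probe sets. The count of 18 fell to 16 without V ZT16 replicate 1 or without DEX ZT16 replicate 1. It was 18 or 19 when any other array was left out. The 5 genes with the smallest p were Gad1, ChAT, Snap25, Sap47 and VAChT. At an unadjusted p under 0.05, 5 of the 22 were higher at ZT16 and 0 lower, where 1.58% of all probe sets were higher at that threshold. None passed after adjustment: each of the 22 had an adjusted p of 0.99, and 0 of the 11261 probe sets (0%) passed (limma, Benjamini-Hochberg). The 4 ZT16 arrays lay wholly above the 3 ZT4 arrays for 6 of the 22 genes, where 2.44% of all probe sets were so placed.

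Gad1, glutamic acid decarboxylase, which makes GABA, had the largest time difference among the 22 (probe set 1627818_s_at). It read 4.27 on the V ZT4 array, 3.76 and 4.32 on the DEX ZT4 arrays, 5.01 and 4.96 on the V ZT16 arrays and 5.72 and 4.99 on the DEX ZT16 arrays. All 4 night arrays were above all 3 day arrays, and DEX ZT16 replicate 1 was the highest. The change was 1.07 ± 0.26, a 2.10-fold difference (unadjusted p = 0.00466, adjusted p = 0.99, limma). The V array with no labelled time read 3.70, below every timed array. VGAT (1625228_at), which loads GABA into vesicles, lay between 2.57 and 3.01 on the timed arrays, mostly below the filter level, and was not among the tested genes.

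The acetylcholine genes ChAT and VAChT sit in 1 shared locus, in which ChAT makes the transmitter and VAChT loads it. ChAT (1640284_at) read 3.02 on the V ZT4 array, 2.92 and 2.93 with DEX at ZT4, 3.18 and 3.38 with vehicle at ZT16 and 3.60 and 4.01 with DEX at ZT16. The ZT16 arrays were all above the ZT4 arrays, and within ZT16 both DEX arrays were above both vehicle arrays. The change over time was 0.63 ± 0.17, or 1.55-fold (unadjusted p = 0.00788, limma). VAChT (1636264_at) read 3.13 on the V ZT4 array, 3.09 and 3.15 with DEX at ZT4, 3.61 and 3.63 with vehicle at ZT16 and 3.22 and 3.94 with DEX at ZT16. Its groups by time did not overlap either, but the lower DEX ZT16 array, replicate 1, was only slightly above the ZT4 arrays. The VAChT change was 0.47 ± 0.18, or 1.38-fold (unadjusted p = 0.0325, limma). The order of the DEX ZT16 replicates was thus the reverse of that for Gad1: replicate 2 was the highest array for both ChAT and VAChT. Ace (1624577_at), the acetylcholinesterase that breaks the transmitter down, differed by 0.09 ± 0.17, and its highest array was V ZT16 replicate 1 at 3.90 against 3.26 to 3.43 on the others.

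**Figure D2:**
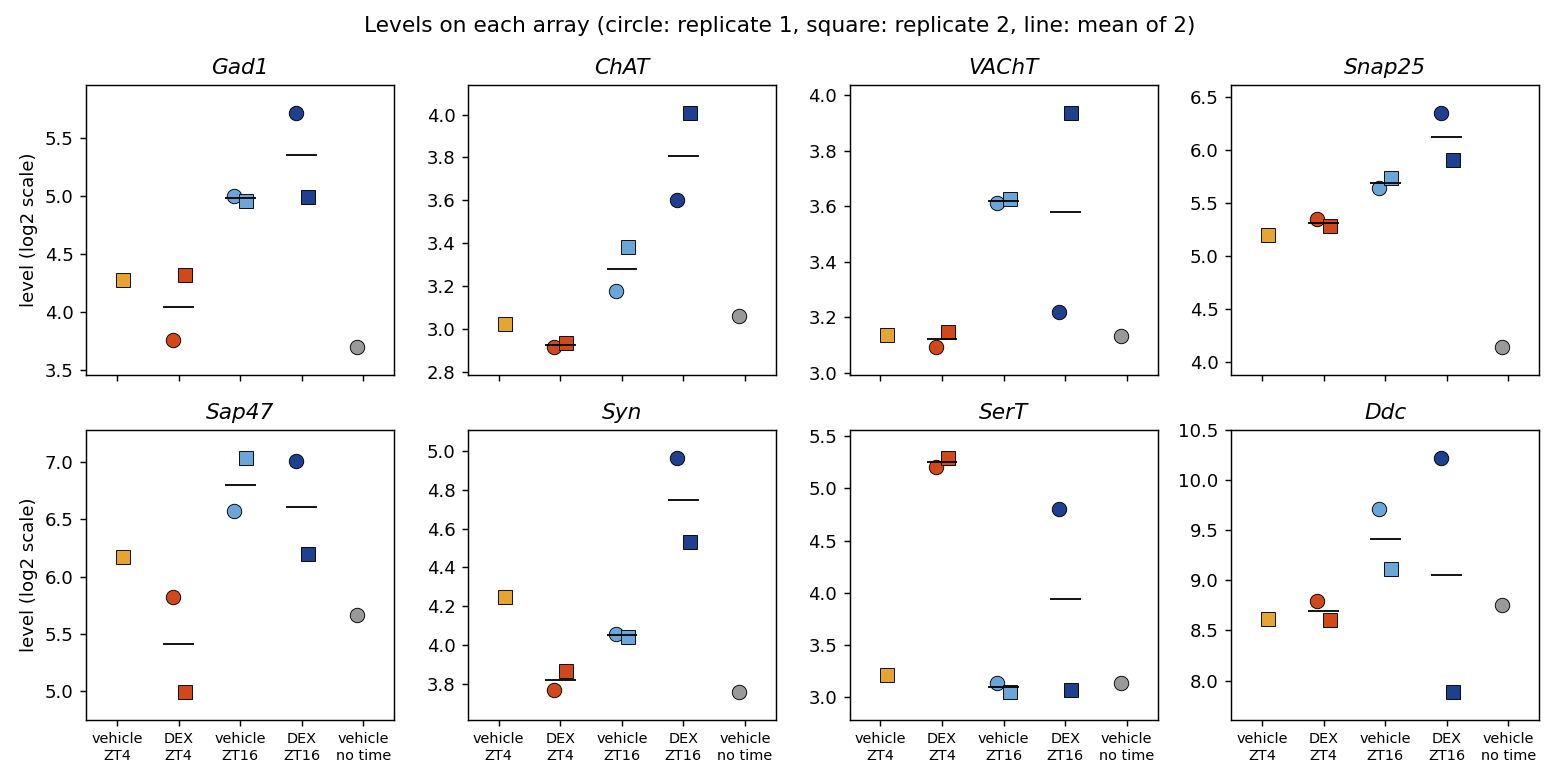
Level on each array of the 8-array design for 8 genes, on a log2 scale that differs between panels and does not start at 0. Circles are replicate 1, squares replicate 2 and short lines the mean of 2 arrays. Gad1, ChAT, VAChT, Snap25 and Sap47 are higher on all 4 ZT16 arrays than on the 3 ZT4 arrays, and SerT is high on 3 of the 4 timed DEX arrays.

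Among the fusion genes, only Snap25 had an unadjusted p under 0.05 over time. Snap25 (1638558_a_at), a SNARE of the plasma membrane, read 5.20 on the V ZT4 array, 5.35 and 5.28 with DEX at ZT4, 5.64 and 5.74 with vehicle at ZT16 and 6.35 and 5.91 with DEX at ZT16. The day arrays were tight and every night array was above them, with a change of 0.69 ± 0.20, or 1.61-fold (unadjusted p = 0.0105, limma). The V array with no labelled time, at 4.14, was far below all of these. The other SNARE with a probe set, the vesicle protein nSyb (1636838_a_at), stayed within 4.66 to 4.85 on all 7 timed arrays and differed by -0.10 ± 0.15. Rop (1627197_at), the Sec1/Munc18 partner of syntaxin, differed by -0.08 ± 0.19, and the vesicle chaperone Csp (1636651_a_at) by -0.07 ± 0.21. The fusion clamp complexin, cpx (1639609_s_at), differed by 0.32 ± 0.24. So 2 of the 5 fusion genes tested were higher at ZT16 and 3 lower, with a median of -0.07 (54.7% of all probe sets were higher). Each of the 3 lower values was within 1 SE of 0.

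The tested genes of the active zone and of the vesicle pool all had positive time changes, as 54.7% of all probe sets did. Sap47 (1630169_a_at), a synapse-associated protein that interacts with synapsin, read 6.17 on the V ZT4 array, 5.83 and 4.99 with DEX at ZT4, 6.57 and 7.04 with vehicle at ZT16 and 7.01 and 6.20 with DEX at ZT16. Its night arrays were all above its day arrays, the closest pair being 6.20 and 6.17, and the change was 0.97 ± 0.33, or 1.96-fold (unadjusted p = 0.0206, limma). A second Sap47 probe set was less clear, with 0.45 ± 0.30 and overlapping groups. Syn (1636378_a_at), synapsin, which tethers vesicles in the reserve pool, differed by 0.48 ± 0.26. The priming factor unc-13 (1635684_a_at) differed by 0.44 ± 0.24 and was the 6th gene with groups that did not overlap. The active zone proteins Rim (1639490_at) and Rab3 (1625838_at), a vesicle GTPase, differed by 0.18 ± 0.27 and 0.52 ± 0.24, and brp (1636216_at) stayed between 2.58 and 3.23. The dynamin shi (1625442_a_at), which cuts vesicles free in endocytosis, differed by 0.60 ± 0.32. The neuronal RNA-binding proteins elav (1636615_at) and fne (1633852_at) differed by 0.07 ± 0.17 and 0.27 ± 0.27.

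Further probe sets above the filter were read for cpx, Rim, shi and Vmat. The 2nd cpx probe set (1636880_s_at) gave a larger time change than the one used, 0.75 ± 0.20 with groups that did not overlap (unadjusted p = 0.00768, adjusted p = 0.99, limma). The other Rim probe sets gave 0.27 ± 0.20 and 0.18 ± 0.19. The other shi probe sets gave 0.05 ± 0.10 and 0.62 ± 0.36. The other Vmat probe sets gave 0.09 ± 0.17, -0.02 ± 0.07 and 0.37 ± 0.25.

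The time changes of the monoamine genes were smaller by value than those of Gad1, ChAT and VAChT, except for Ddc and SerT. Of their 5 tested genes, 4 were higher at ZT16 (54.7% of all probe sets), with a median change of 0.11. None had an unadjusted p under 0.05. In the dopamine system, tyrosine hydroxylase, ple (1624452_a_at), differed by 0.10 ± 0.17 and the dopamine transporter DAT (1633205_at) by 0.11 ± 0.12. DAT read 3.34 on the V ZT4 array, 3.33 and 3.37 with DEX at ZT4, 3.67 and 3.34 with vehicle at ZT16 and 3.51 and 3.36 with DEX at ZT16. Both genes were highest on V ZT16 replicate 1, and the other night arrays overlapped with the day arrays. Ddc (1639320_a_at), the decarboxylase that completes dopamine and serotonin synthesis and also serves the cuticle, varied most of all between replicates. It read 8.61 on the V ZT4 array, 8.79 and 8.60 with DEX at ZT4, 9.71 and 9.11 with vehicle at ZT16 and 10.22 and 7.89 with DEX at ZT16. The 2 DEX ZT16 arrays held both the highest and the lowest value, and the change was 0.53 ± 0.53.

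Vmat (1637393_at), which loads all monoamines into vesicles, read 5.51 on the V ZT4 array, 5.49 and 5.51 with DEX at ZT4, 5.90 and 6.05 with vehicle at ZT16 and 5.62 and 5.50 with DEX at ZT16. Only the vehicle night arrays stood clear of the others, and the change over both treatments was 0.23 ± 0.18. SerT (1623006_at), the serotonin transporter that takes the transmitter back up, had the most negative time change of the 22, -0.83 ± 0.44 (unadjusted p = 0.0997, limma). Its arrays are given with the DEX comparison. Among the genes below the filter, Hdc (1634856_at), which makes the transmitter of photoreceptors, lay between 2.48 and 2.63 except on V ZT16 replicate 1, at 2.98. Tdc2 (1632764_at) lay between 2.46 and 2.61 except on DEX ZT16 replicate 1, at 3.20. VGlut (1632620_at) lay between 2.45 and 2.56, and Tbh (1627317_a_at) between 2.41 and 2.71. These 4 probe sets carry no time comparison beyond those single arrays.

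The time difference was then taken within each treatment, which gives comparisons with no array in common. In vehicle, 18 of the 22 genes were higher at ZT16 (58.7% of all probe sets), with a median change of 0.27 and 0 genes at an unadjusted p under 0.05, where 3.49% of all probe sets were in either direction. No probe set passed after adjustment (0%). That comparison rests on the single V ZT4 array. Without V ZT16 replicate 1 the vehicle count was 14 (47.4% of all probe sets) and the median 0.35. Without V ZT16 replicate 2 they were 17 (57.15%) and 0.27. In DEX, 18 of the 22 were also higher (48.3% of all probe sets), with a median of 0.24. Without DEX ZT16 replicate 1 the count was 14 and the median 0.033, and without replicate 2 they were 16 and 0.62. With all arrays, 5 were higher at an unadjusted p under 0.05, where 1.8% of all probe sets were. These were ChAT at 0.88 ± 0.18, Syn at 0.93 ± 0.23, Gad1 at 1.31 ± 0.34, Snap25 at 0.81 ± 0.27 and Sap47 at 1.20 ± 0.44, with an adjusted p of 1.00 for each (limma). After adjustment 1 probe set of the 11261 passed in this comparison (0.00888%), and it was none of these genes. Both changes were positive for 16 of the 22 genes, against 28.8% of all probe sets, and they had the same sign for 18, against 50.5%. In vehicle, Gad1 differed by 0.71 ± 0.41, Snap25 by 0.50 ± 0.33, VAChT by 0.48 ± 0.30 and ChAT by 0.26 ± 0.22.

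**Figure D3:**
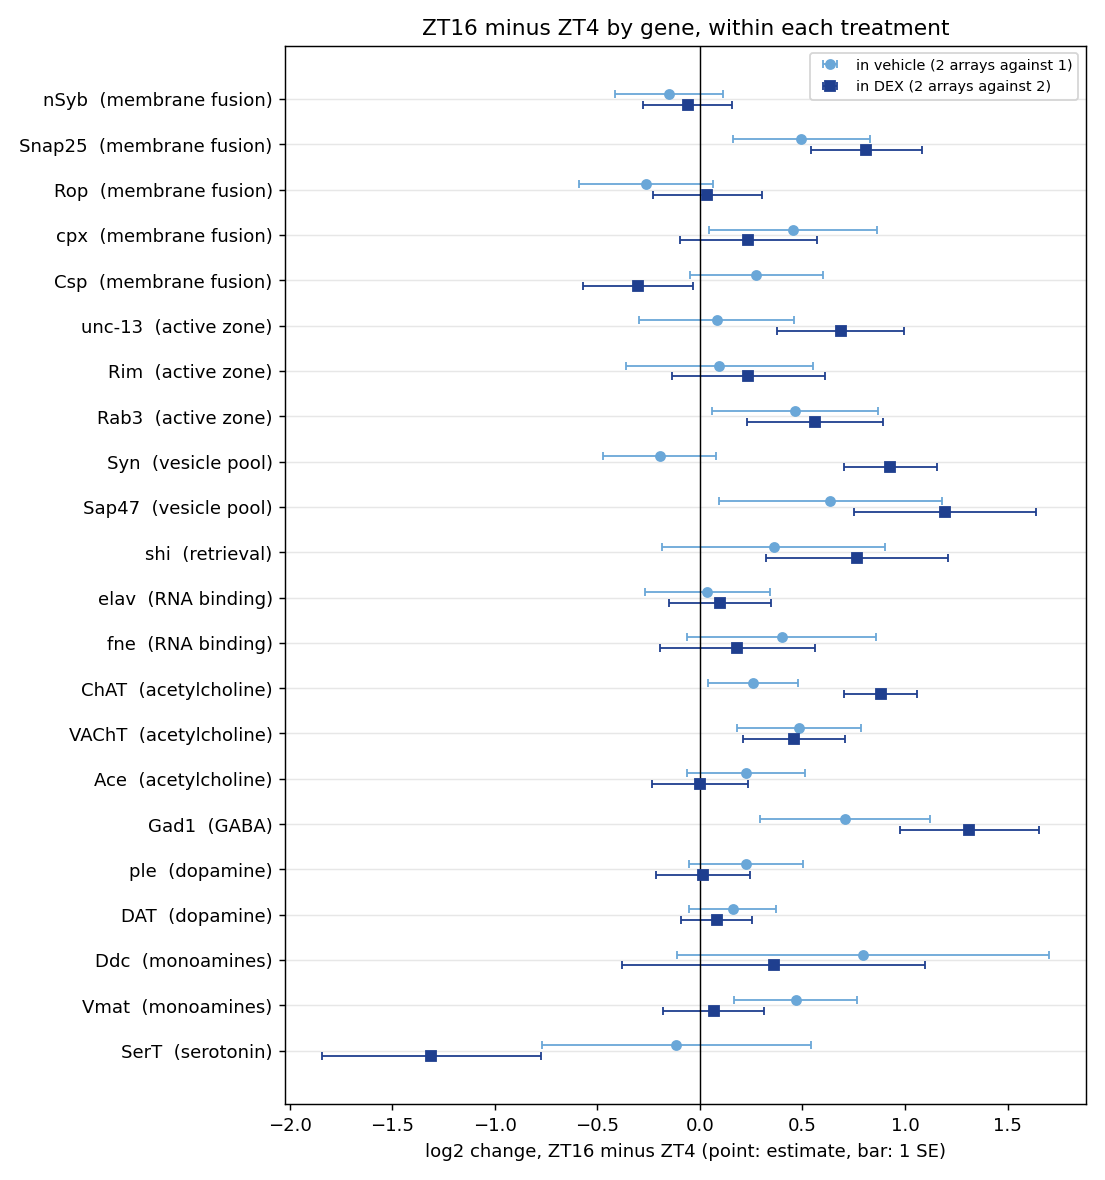
Change from ZT4 to ZT16 for the 22 tested genes in vehicle (light circles, 2 arrays against 1) and in DEX (dark squares, 2 against 2), as log2 change with bars of 1 SE. Gad1, Snap25, Sap47 and ChAT lie to the right of 0 in both treatments, Syn lies left of 0 in vehicle and right of 0 in DEX, and SerT lies at -1.31 in DEX and -0.11 in vehicle.

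The difference between the 2 time effects was tested directly. Syn was the only one of the 22 with an unadjusted p under 0.05, a time effect larger in DEX by 1.12 ± 0.36 (unadjusted p = 0.0203, adjusted p = 0.997, limma), where 1.93% of all probe sets had such a positive difference. It read 4.25 on the V ZT4 array, 3.77 and 3.87 with DEX at ZT4, 4.06 and 4.04 with vehicle at ZT16 and 4.96 and 4.53 with DEX at ZT16. The replicates of DEX ZT4 and V ZT16 lay close together and those of DEX ZT16 did not, and the DEX arrays were the lowest by day and the highest by night. The groups of genes went opposite ways by value: the time effect was larger in DEX for 9 of 11 fusion, active zone, vesicle pool and retrieval genes, and smaller in DEX for all 5 monoamine genes tested, where 45.2% of all probe sets had a larger one. Without DEX ZT16 replicate 1 the median of this difference over the 22 genes was -0.15 in place of 0.08, and without replicate 2 it was 0.21. The time effect was larger in DEX for 12 of the 22 with all arrays, 9 without replicate 1 and 15 without replicate 2. Both group counts changed when 1 of these 2 DEX ZT16 arrays was left out. Fewer than 9 of the 11 stayed larger in DEX without replicate 1, and Ddc became larger in DEX without replicate 2. The count over the 22 was also 15 without V ZT16 replicate 1. Every value of this comparison, that of Syn included, rests on the single V ZT4 array. No adjusted p passed in this comparison for any of the 11261 probe sets.

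The replicates of 1 group differed for these genes. DEX ZT16 replicate 1 was the highest timed array for 9 of the 22 genes, against 15% of all probe sets, and the lowest for 0. It exceeded DEX ZT16 replicate 2 for 17 of the 22, by a median of 0.44, whereas over all probe sets it was higher for 45.0% with a median difference of -0.01. The replicate pairs of the other groups had median differences of 0.00 for V ZT16 and -0.05 for DEX ZT4. Without DEX ZT16 replicate 1 the median time change of the tested genes was 0.13, and without replicate 2 it was 0.43. Without replicate 1, Gad1 differed by 0.83, Snap25 by 0.54, Sap47 by 0.71, ChAT by 0.67 and VAChT by 0.65. Without replicate 2, Gad1 differed by 1.19, Snap25 by 0.77, Sap47 by 1.12, ChAT by 0.47 and VAChT by 0.29, and the VAChT change without replicate 2 had an unadjusted p of 0.076 (limma). The number of genes at an unadjusted p under 0.05 ranged from 3 without DEX ZT4 replicate 2 to 8 without DEX ZT16 replicate 2. DEX ZT16 replicate 1 also had the largest 3′ to 5′ difference of the actin and eIF-4a controls, though not of the GAPDH controls. The part of RNA quality in these results was not tested.

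Markers of other cell types in the head were read on the same arrays. Of the listed markers, 6 of 8 photoreceptor, 7 of 8 glial, 5 of 7 fat body, 5 of 7 muscle and 3 of 3 haemocyte genes were tested. Photoreceptor genes were higher at ZT16 for 6 of 6, with a median change of 0.67 and 5 at an unadjusted p under 0.05, where 54.7% of all probe sets were higher and 1.58% were higher at that threshold. Their summed level was 10.71 to 10.80 on the ZT4 arrays and 11.08 to 11.73 on the ZT16 arrays, highest on DEX ZT16 replicate 1. Glial genes were higher for 5 of 7, with a median of 0.22 and a summed level of 9.01 to 9.44 at ZT4 and 9.22 to 9.84 at ZT16. Fat body genes were higher for 2 of 5 (summed level 15.18 to 16.23 at ZT4 and 14.88 to 16.11 at ZT16), muscle genes for 3 of 5 (6.18 to 6.41 and 6.17 to 6.58) and haemocyte genes for 2 of 3 (5.36 to 5.59 and 5.11 to 5.70), each count to be read against the same 54.7%, and 0 of the genes of these 4 cell types had an unadjusted p under 0.05. Of the genes that mark all neurons, fne differed by 0.27, elav by 0.07 and nSyb by -0.10. The part of these cell types in the time differences was not tested.

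The second question was whether the transmission genes differed between DEX and vehicle. In the additive fit 9 of the 22 were higher and 13 lower with DEX, with a median change of -0.03 (45.7% of all probe sets were higher). No probe set passed after adjustment (0%). SerT alone had an unadjusted p under 0.05, higher with DEX, where 1.63% of all probe sets were. Its level was 3.21 on the V ZT4 array and 5.20 and 5.29 on the DEX ZT4 arrays. At ZT16 it was 3.14 and 3.06 with vehicle and 4.81 and 3.07 with DEX. It was also 3.14 on the V array with no labelled time. SerT was therefore high on 3 of the 4 timed DEX arrays and level with vehicle on DEX ZT16 replicate 2.

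The SerT difference with DEX was 1.32 ± 0.44 over both times, or 2.49-fold (unadjusted p = 0.0197, adjusted p = 0.994, limma). At ZT4 alone it was 2.03 ± 0.66, or 4.10-fold (unadjusted p = 0.0215, adjusted p = 1.00, limma), against a single vehicle array, where 1.14% of all probe sets were higher at that threshold, and at ZT16 it was 0.84 ± 0.54. The difference between these effects was -1.19 ± 0.85 and did not pass (unadjusted p = 0.209). Without DEX ZT16 replicate 2 the difference over both times was 1.87 and did pass after adjustment (adjusted p = 0.0241, limma). Leaving out the V ZT4 array instead gave 0.84. The SerT probe set of the 4-array design was below the filter, at 2.59 and 2.50 on the arrays labelled DEX and 2.51 and 3.05 on the vehicle arrays.

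**Figure D4:**
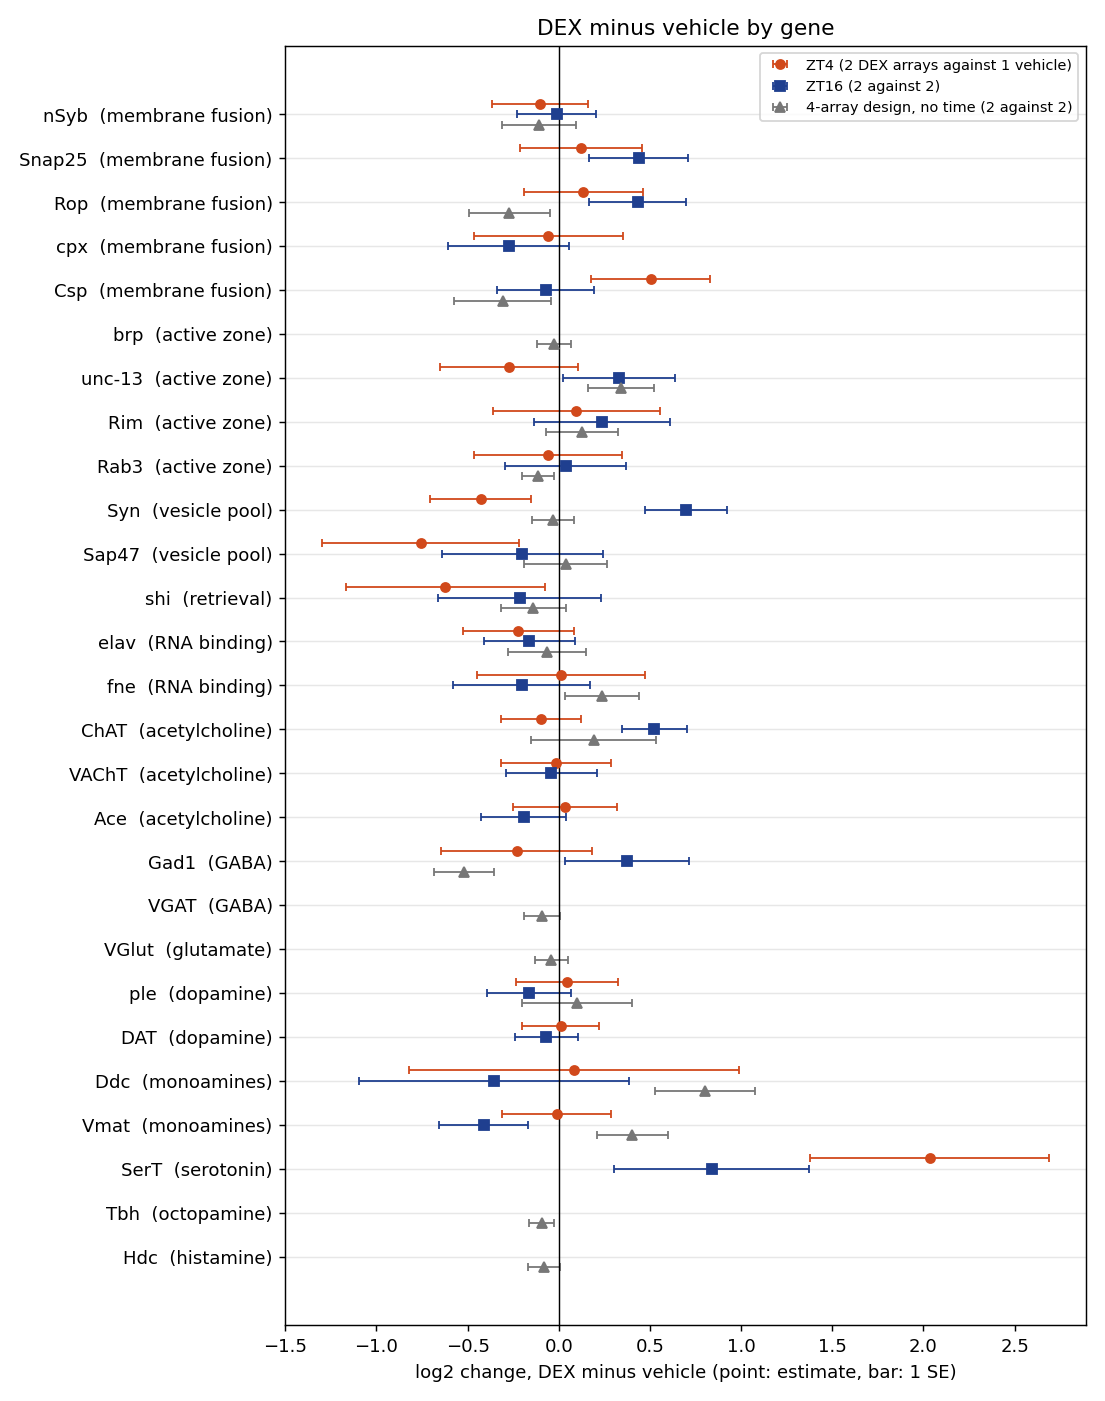
DEX minus vehicle for each gene above the filter at ZT4 (orange circles, 2 DEX arrays against 1 vehicle array), at ZT16 (blue squares, 2 against 2) and on the 4-array design with no labelled time (grey triangles, 2 arrays labelled DEX against 2), as log2 change with bars of 1 SE. SerT is the point farthest right, at 2.03 at ZT4, and most other genes lie within 0.5 of 0.

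Of the 22 genes, 10 were higher with DEX at ZT4 (55.5% of all probe sets) and 9 at ZT16 (44.3%), with median changes of -0.01 and -0.05. At ZT16, Syn was higher with DEX by 0.70 ± 0.23 (1.62-fold) and ChAT by 0.52 ± 0.18 (1.44-fold), at unadjusted p of 0.0219 and 0.0273 and an adjusted p of 0.976 for both (limma). Those are 2 of the 22, where 1.42% of all probe sets were higher at that threshold. The number was 1 without either DEX ZT4 array, 0 without V ZT16 replicate 1 and 3 without V ZT16 replicate 2 or DEX ZT16 replicate 1. ChAT differed by 0.32 without DEX ZT16 replicate 2, and Syn by 0.48 without replicate 1. The number of genes higher with DEX at ZT16 was 13 without V ZT16 replicate 1 and 16 without DEX ZT16 replicate 2. At ZT4 the same genes differed by -0.43 ± 0.28 and -0.10 ± 0.22. Rop, at 6.92 on the V ZT4 array, 7.06 and 7.04 with DEX at ZT4, 6.61 and 6.70 with vehicle at ZT16 and 6.97 and 7.20 with DEX at ZT16, was the only gene whose 4 DEX arrays all lay above its 3 vehicle arrays (1.99% of all probe sets). Its additive difference was 0.31 ± 0.19. The V array with no labelled time is outside that count. For Rop it read 7.11, above every DEX array except DEX ZT16 replicate 2. The DEX differences at ZT4 and at ZT16, which share no array, had the same sign for 11 of the 22 genes (47.3% of all probe sets).

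By transmitter system, the additive DEX difference was 0.28 ± 0.17 for ChAT, -0.03 ± 0.18 for VAChT and -0.10 ± 0.17 for Ace. It was 0.13 ± 0.26 for Gad1. In the dopamine and shared monoamine genes it was negative for 4 of 4 (45.7% of all probe sets were positive): ple at -0.08 ± 0.17, DAT at -0.04 ± 0.12, Ddc at -0.18 ± 0.53 and Vmat at -0.25 ± 0.18. None of these exceeded 2 SE. Vmat was lower with DEX at ZT16 without overlap, with a difference of -0.41 ± 0.25 (13.8% of all probe sets were lower without overlap), and differed by -0.01 ± 0.30 at ZT4. The other Vmat probe sets above the filter did not share this direction throughout. Their additive differences were 0.34 ± 0.17, -0.02 ± 0.07 and 0.13 ± 0.25, and at ZT16 they were 0.32 ± 0.24, -0.07 ± 0.09 and 0.06 ± 0.35. Among the release genes the additive difference ran from -0.42 ± 0.33 for Sap47 to 0.31 ± 0.19 for Rop. The second Sap47 probe set went the other way, by 0.29 ± 0.30. Fat body markers were lower with DEX for 4 of 5 and photoreceptor markers higher for 5 of 6, none at an unadjusted p under 0.05. Glial markers were higher for 5 of 7, 1 of them at that threshold (1.63% of all probe sets). Haemocyte markers were higher for 3 of 3 and muscle markers for 3 of 5, where 45.7% of all probe sets were. By time, fat body markers were lower for 4 of 5 at ZT4 and higher for 5 of 5 at ZT16 (55.5% and 44.3% of all probe sets were higher). The part of these cell types was not tested.

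When the 4-array design was tested, 8 of the 21 tested genes were higher and 13 lower on the arrays labelled DEX, where 36.5% of all 8379 probe sets were higher, and the median change was -0.04. Gad1 (143478_at) was lower, at 2.80 and 3.01 against 3.65 and 3.21 with vehicle. The groups did not overlap, and the change was -0.52 ± 0.16 (unadjusted p = 0.0208, adjusted p = 0.778, limma), where 2.22% of all probe sets were lower at that threshold. The value 2.80 is under that design's filter level of 2.92. Without DEX replicate 2 the change was -0.63 and passed after adjustment (adjusted p = 0.00572), in a fit in which 314 of all probe sets passed, against 1 (0.0119%) with all 4 arrays. Without V replicate 2 it was -0.30, and without V replicate 3 it was -0.74.

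Ddc (152611_at) was higher on that design with the DEX label, at 7.33 and 7.62 against 6.89 and 6.45, a change of 0.80 ± 0.28 or 1.74-fold (unadjusted p = 0.0291, adjusted p = 0.778, limma), where 3.20% of all probe sets were higher at that threshold. Vmat (152678_at), the other gene shared by the monoamines, was 5.80 and 5.81 against 5.33 and 5.48, higher without overlap by 0.40 ± 0.19. A second Vmat probe set on this design went the other way, by -0.17 ± 0.12. The groups did not overlap for 4 genes that were higher (12.1% of all probe sets) and 6 that were lower (31.4%). The genes VGAT, VGlut, Tbh, Hdc and brp, which were tested only here, differed by -0.09 to -0.03. Compared with the additive DEX difference on the other design, which shares no array, 7 of 16 genes tested on both had the same sign (49.3% of 5514 genes). Because tim goes against the DEX label on the 4-array design, the direction of each of its differences, those of Gad1 and Ddc included, is that of the labels and is in doubt. With the sign turned, 9 of 16 genes had the same sign (50.7% of all). Muscle markers were lower on the arrays labelled DEX for 4 of 5, 2 of them at an unadjusted p under 0.05, where 36.5% of all probe sets were higher and 2.22% were lower at that threshold, with summed levels of 8.60 and 9.49 against 9.24 and 9.84, and their part was not tested.

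Related genes from longer lists were read in the same fits. Of 22 other tested genes of vesicle release and endocytosis, 19 were higher at ZT16, with a median of 0.21 and 5 at an unadjusted p under 0.05 (54.7% and 1.58% of all probe sets). The smallest p belonged to the vesicle protein synaptogyrin, Syngr, at 0.83 ± 0.21 (unadjusted p = 0.00517, adjusted p = 0.99, limma), the RIM-binding protein Rbp at 0.34 ± 0.12 and endophilin, EndoA, at 0.50 ± 0.18, each with groups that did not overlap. Of 10 tested genes of transmitter synthesis and recycling outside the main list, 5 were higher and 5 lower (54.7% of all probe sets were higher). The smallest p belonged to the tyrosine decarboxylase Tdc1 at -0.67 ± 0.28, the choline transporter ChT at 0.47 ± 0.24 and glutamine synthetase Gs2 at 0.45 ± 0.23.

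Of 27 tested transmitter receptors, 23 were higher at ZT16 (54.7% of all probe sets), with a median of 0.13, and 1 was higher and 1 lower at an unadjusted p under 0.05 (1.58% and 1.99% of all probe sets). The nicotinic subunit nAChRbeta3 was lower by 0.79 (log2 change -0.79 ± 0.22), the subunit nAChRbeta2 was higher by 0.52 ± 0.19, and the serotonin receptor 5-HT1A by 0.28 ± 0.12. With DEX in the additive fit, nAChRalpha7 was the only one of the receptors at an unadjusted p under 0.05 (1.63% of all probe sets were higher at that threshold), at 0.35 ± 0.15, followed by 5-HT1A at -0.23 ± 0.12 and the dopamine receptor Dop2R at -0.21 ± 0.18. On the 4-array design nAChRalpha7 differed by 0.29 ± 0.13, GluRIA, a glutamate receptor subunit, by -0.12 ± 0.07 and the receptor Oct-TyrR by -0.14 ± 0.09. The smallest p there among the recycling genes was that of the GABA transporter Gat, lower by 0.54 (log2 change -0.54 ± 0.09, unadjusted p = 0.000951, adjusted p = 0.397, limma), followed by ChT at -0.25 ± 0.18 and CarT at -0.12 ± 0.09. Among the release genes of that design it was Scamp at 0.52 ± 0.21, Tomosyn at 0.34 ± 0.17 and lap at -0.14 ± 0.08.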

How the data were processed

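The authors deposited intensity values on a linear scale for 12 arrays of 2 designs, 8 and 4. The submitters' processing notes name GCRMA and give no version of it. Natural logs of these values were read as log2 levels, because those logs run from 1.84 to 15.50 and from 0.97 to 15.01, whereas the highest deposited value is 5374153. If log2 of the deposited values were meant, each change would be 1.44 times as large, with the same p-values. Control probe sets were left out (183 and 44), and probe sets with a mean above the 40th percentile were kept, 11261 of 18769 and 8379 of 13966. No 2 arrays held identical values.

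Linear models were fitted in R 4.3.3 with limma 3.58.1 and statmod 1.5.0, moderated by eBayes with the prior variance following the mean level. Benjamini-Hochberg adjustment ran over all kept probe sets. Time and treatment were fitted additively over 7 arrays, and with 1 mean per group. The lone V ZT4 array is assumed to vary like the other groups. On simulated data for the additive time comparison over 11261 probe sets, 49 of 100 changes of 1 log2 unit and 94 of 100 changes of 3 were recovered. A further 11 unchanged probe sets also passed after adjustment. The simulated noise was independent between probe sets and unrelated to level, so these numbers do not measure recovery on the real arrays. The genes, lists and comparisons were chosen with earlier results of these data known. Named with values per array are genes at an unadjusted p under 0.05 in the additive or 4-array comparisons and the gene with the smallest p of each transmitter system, and others were named for their role or after their values were seen. Of each longer list the 3 genes with the smallest p are named. A gene with several probe sets has the one with the highest mean. Alternatives were normalization, filter, trend, array weights, probe set choice, a replicate block and leaving out each array.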

Additional observations from a re-analysis of the deposited data

How the results depend on the processing

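The number of arrays limits every value, with 1 to 2 per group. In the count that follows, a named gene is only 1 with an unadjusted p under 0.05 in the same comparison with all arrays. Other genes named in the text are outside it. Of 262 values of named genes under the alternatives, 0 changed sign and 2 crossed the threshold of an adjusted p of 0.05: SerT without DEX ZT16 replicate 2 and Gad1 of the 4-array design without DEX replicate 2, both given above. The cause was not tested. Some alternatives could not change a sign. With no filter and without the mean-variance trend, Gad1 differed over time by 1.07, as reported. With log2 of the deposited values its change was only rescaled, to 1.55. Outside the count, Ddc had a difference between the time effects of -0.44 and was larger in DEX without DEX ZT16 replicate 2.

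The numbers of transmission genes at an unadjusted p under 0.05 moved as follows. Without the mean-variance trend they were 2 for DEX in the additive fit (1 as reported), 1 for time in vehicle (0), 4 for DEX at ZT16 (2) and 4 on the 4-array design (2). With no filter on dim probe sets they were 1 for time in vehicle, 2 for DEX at ZT4 (1) and 2 for the difference between the time effects (1). On the 4-array design quantile normalization and a filter at the 60th percentile each left 1. Numbers of probe sets at an adjusted p under 0.05 were 0 in place of 1 for time in DEX with no filter, with the 60th percentile filter, without the trend and with a replicate block. They were 1 in place of 0 for DEX at ZT4 with array weights. On the 4-array design they were 23 in place of 1 with no filter, and 0 with quantile normalization, median centring, array weights and the mean of all probe sets of a gene.

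Leaving out 1 array at a time gave 3 to 8 genes for time in the additive fit (median 0.13 to 0.43), 0 to 2 in vehicle (0.27 to 0.35), 3 to 10 in DEX (0.033 to 0.62) and 0 to 4 for the difference (-0.15 to 0.21). For DEX it gave 1 to 2 in the additive fit (median -0.06 to 0.11), 0 to 1 at ZT4 (-0.03 to 0.0013), 0 to 3 at ZT16 (-0.15 to 0.26) and 1 to 3 on the 4-array design (-0.10 to 0.0019). Probe sets passing after adjustment were 0 to 18 for DEX in the additive fit, 18 being without DEX ZT16 replicate 2, 0 to 0 for time in DEX, and 0 to 314 on the 4-array design. Without the V ZT4 array there is no value for time in vehicle, DEX at ZT4 or the difference.

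Replicate numbers did not pair arrays: deviations of same-numbered arrays correlated at -0.24, -0.01 and 0.07 across probe sets. With a replicate block, Gad1 differed over time by 1.07, ChAT by 0.69 and SerT by -0.97, and no call on a named gene changed. No paired analysis was possible on the 4-array design because its groups share only 1 replicate number.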

Other observations

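The glutamate transporter Eaat2 differed over time in opposite directions in the treatments, by -0.90 ± 0.24 in vehicle and 0.43 ± 0.20 in DEX. The difference of these effects was 1.33 ± 0.31 (unadjusted p = 0.00519, adjusted p = 0.997, limma), the smallest p among the 10 recycling genes tested. The endocytic adaptor Eps-15 had the smallest p among the 22 other release genes in the same comparison, at 1.08 ± 0.29 (unadjusted p = 0.00949, adjusted p = 0.997, limma). Both vehicle values rest on the single V ZT4 array. Eaat2 differed with DEX by -0.76 ± 0.24 at ZT4 and by 0.58 ± 0.20 at ZT16.

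The following genes were chosen after their values were seen. E(spl)m2-BFM, a gene of the Enhancer of split complex, read 2.75 on the V ZT4 array, 6.16 and 5.34 with DEX at ZT4, 2.79 and 2.74 with vehicle at ZT16 and 5.55 and 2.81 with DEX at ZT16. It was high on the same 3 DEX arrays as SerT and level with vehicle on DEX ZT16 replicate 2. E(spl)mbeta-HLH, a transcription factor of the same complex, was 11.51 to 11.81 with DEX at ZT4, 11.31 and 9.02 with DEX at ZT16 and 8.31 to 9.10 on the timed vehicle arrays. The clock repressor cwo was 8.23 and 8.51 with DEX at ZT4, 8.99 and 6.74 with DEX at ZT16 and 5.97 to 6.98 on the timed vehicle arrays. On DEX ZT16 replicate 2, tim was 8.21, still above the 5.49 to 6.70 of the timed vehicle arrays.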
